A study of Mus musculus with 6 samples.

Results

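The 10 genes described here carry iron into, through and out of erythroid cells, or sense it: Trf, Tfrc, Tfr2, Hfe, Steap3, Slc11a2, Slc25a37, Slc40a1, Aco1 and Ireb2. They were taken by symbol from a list of iron genes, and all 10 were found among the 13007 genes of the count table. RNA sequencing measured them in sorted bone marrow cells of C57BL/6 mice, to compare acute erythroid leukemia (AEL) with normal erythroid precursors (NC), with 3 libraries in each group. AEL cells carried the genotype Trp53-/- (no p53) with expression of ERG, an ETS transcription factor, which was introduced together with GFP, and the GFP-positive cells were sorted. NC cells were wild type (WT) marrow cells sorted after staining with antibodies to CD71 and Ter119, a red cell lineage antigen. The label for tissue names SETBP1 and ASXL1 mutations for both groups, which goes against the WT label of NC. CD71 is the protein encoded by Tfrc, so the NC sort used the product of 1 of the 10 genes; the gate is not given. What promoter drove ERG, how old the mice were and whether animals were pooled is not stated in the labels. Replicates are called biological there, with no animals named, so the spread behind each p-value is that of these samples and may be technical.

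Red cell precursors take up more iron than other cells because they make hemoglobin. Iron-loaded transferrin binds its receptor at the surface, the pair enters an endosome, and there a reductase converts the iron so that a transporter can move it into the cytosol. Mitoferrin then brings it into the mitochondrion for heme synthesis. A pair of iron regulatory proteins bind stem-loops called iron-responsive elements (IREs) when iron is scarce, and this stabilizes the transferrin receptor mRNA and blocks translation of the ferritin and ferroportin mRNAs. This last layer acts partly on translation, which counts of mRNA do not show.

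The IREs of these transcripts are shown because they are the sites by which Aco1 and Ireb2 act on other genes described below. They were found in GENCODE vM21 coding transcripts (GRCm38) as a bulged C, a stem of 5 paired bases and a 6-base loop that begins CAGTG, and each is given as 30 bases 5′ to 3′. Capitals mark the bulged C and the loop.
Tfrc 3′ UTR, chr16:32631219-32631248, plus strand: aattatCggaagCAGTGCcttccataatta
Tfrc 3′ UTR, chr16:32631598-32631627, plus strand: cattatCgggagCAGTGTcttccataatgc
Tfrc 3′ UTR, chr16:32631663-32631692, plus strand: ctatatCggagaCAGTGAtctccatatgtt
Tfrc 3′ UTR, chr16:32631710-32631739, plus strand: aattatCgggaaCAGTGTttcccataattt
Slc40a1 5′ UTR, chr1:45925464-45925493, minus strand: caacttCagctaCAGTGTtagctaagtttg
Fth1 5′ UTR, chr19:9982732-9982761, plus strand: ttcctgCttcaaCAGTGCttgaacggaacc
Ftl1 5′ UTR, chr7:45459778-45459807, minus strand: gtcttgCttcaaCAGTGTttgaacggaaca
Tfrc held 4 such stem-loops, all within a stretch of its 3′ UTR, and Slc40a1 and both ferritin genes held 1 each in the 5′ UTR. The Tfrc elements stood in 1 of 3 coding transcripts and that of Slc40a1 in 1 of 4, and counts per gene do not separate transcripts. The search found none in the coding transcripts of the other 8 iron genes; a stem with a mismatch or a bulge on its other side would be missed, so this says only that no exact match stood there.

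Library totals ran from 8541477 to 9945330 counts in AEL and from 8171676 to 9385507 in NC. The AEL libraries varied more, with a biological coefficient of variation of 44.3% in AEL and 9.02% in NC. Over 12427 genes tested with edgeR's quasi-likelihood test, 6564 passed an adjusted p of 0.05, which is 52.8% of genes: 2965 were higher in AEL (23.9%) and 3599 lower (29.0%). Of the called genes 45.2% were higher in AEL, and 55.2% when library totals alone set the scale. Over all genes the median log2 fold change was -0.05, and it was 0.14 with library totals alone. Levels below are CPM (counts relative to the library total), scaled by trimmed mean of M-values (TMM) factors, and fold changes are log2 of AEL over NC.

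All 14 erythroid markers were counted in both groups, among them Gata1 and Klf1, and 11 of them fell and 0 rose. Their summed level was 14520, 8136 and 5271 CPM in AEL replicates 1, 2 and 3, against 56099, 63960 and 71279 CPM in NC. The 10 erythroid markers other than hemoglobins summed to 4603, 3752 and 2798 CPM in AEL and to 9534, 9861 and 11420 CPM in NC. The 16 macrophage markers summed to 9.12, 37.9 and 47.3 CPM in AEL replicates 1, 2 and 3 and to 5100.1, 5503 and 6118 CPM in NC; Spic and Timd4, which define iron-recycling and marrow macrophages, were at 0 in all AEL libraries, and all 16 markers fell. The 15 neutrophil markers summed to 21.0, 1322 and 139 CPM in AEL replicates 1, 2 and 3 and to 8588 to 10107 CPM in NC. The 11 B cell markers summed to 1.80 to 2.93 CPM in AEL, compared with 243 to 296 CPM in NC, the 4 measured T and NK cell markers to 0.225 to 0.823 CPM and 46.8 to 53.1 CPM, and the 8 stroma and endothelium markers to 5.29 to 31.1 CPM and 91.5 to 113 CPM. The 9 measured megakaryocyte markers summed to 174 to 452 CPM in AEL, compared with 127 to 154 CPM in NC; of the 8 tested, Itga2b, Gp1ba and Vwf rose and Itgb3, Gp9 and Ppbp fell, with Gp1bb and Ppbp at 0 in all AEL libraries. In bulk RNA, fewer cells of a type and less RNA per cell cannot be told apart. The part of these cell types in the results below was not tested. Ratios to marker sums given below are descriptions without a test, chosen after the values were seen.

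Of the 10 iron genes 8 passed the test, against 52.8% of all genes: 6 were lower and 2 higher in AEL. The AEL and NC libraries did not overlap for 9 of them, against 66.0% of all genes. Their median log2 fold change was -0.86. The genes of uptake did not move as one: the ligand Trf and the partner Hfe were scarcely counted in AEL, the main receptor Tfrc was below NC in every library, its relative Tfr2 was higher in AEL, and the endosomal transporter Slc11a2 did not pass. The mRNAs of the exporter Slc40a1 and of the mitochondrial carrier Slc25a37 fell. Of the sensors, Aco1 rose and Ireb2 did not pass.

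**Figure D1:**
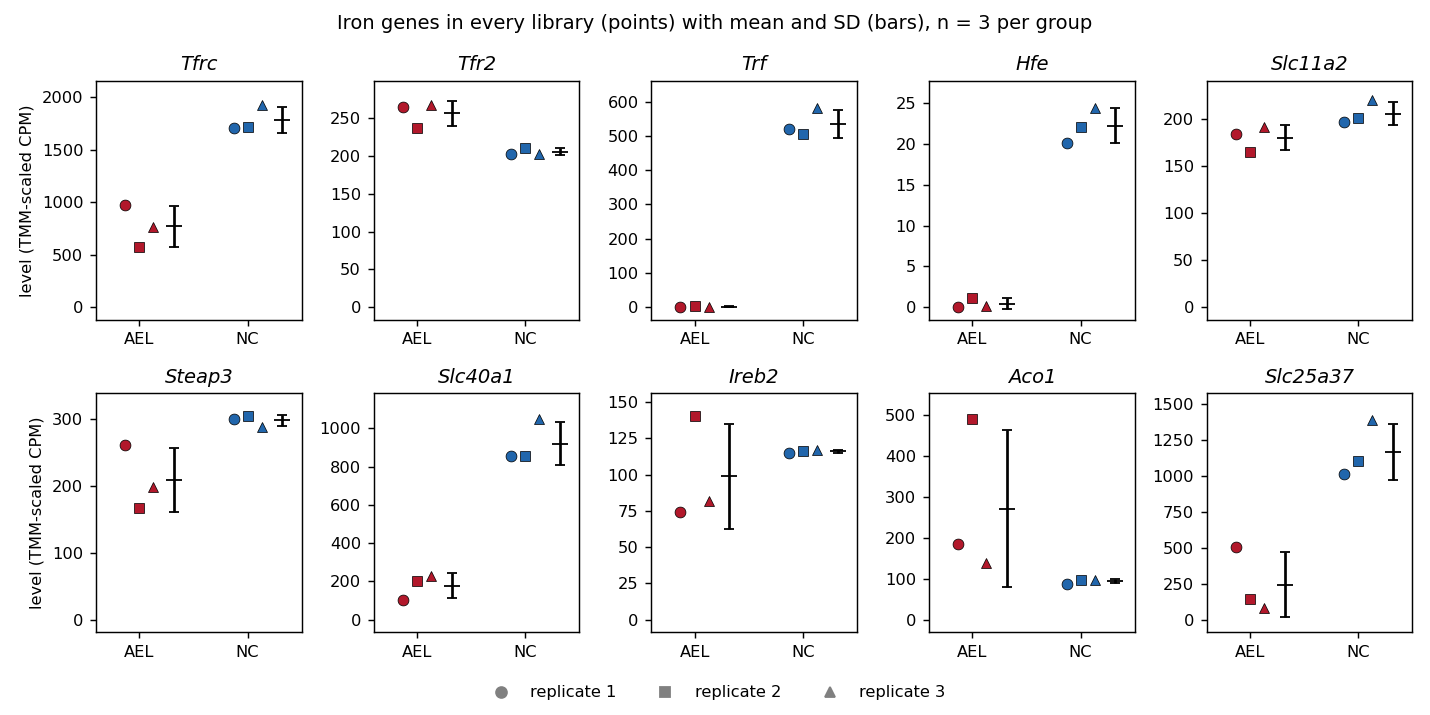
TMM-scaled CPM (y axis, linear) of the 10 iron genes in each AEL and NC library; circles, squares and triangles are replicates 1, 2 and 3, and bars are mean and SD (n = 3). AEL and NC separate in every panel but that of Ireb2, where AEL replicate 2, at 141 CPM, lies above NC and the other AEL libraries lie below.

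Trf encodes transferrin, the carrier of iron in plasma, made mainly by the liver (chromosome 9, 103208876 to 103230286, GRCm38). It was at 0.563, 4.67 and 1.46 CPM in AEL replicates 1, 2 and 3, from 5, 43 and 16 counts, and at 519, 505 and 582 CPM in NC. Every NC library lay far above every AEL library. The log2 fold change was -7.91 (SE 0.62, edgeR adjusted p = 0.000254), and -8.93 without AEL replicate 2. Only 0.81% of tested genes had a lower fold change. Most exon bases of Trf, 2108 of 3320, are shared with Gm20425, a gene model on the same strand with no row in the table, so how reads there were counted is not known.

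The summed macrophage, neutrophil, B cell and T and NK cell markers were each lower in every AEL library than in NC, as was Trf. Among AEL libraries Trf was highest in replicate 2, as was the neutrophil sum, whereas the macrophage sum was highest in replicate 3. That rank of the macrophage sum rested on 1 marker, Mrc1, at 0.563, 0.217 and 28.6 CPM in AEL replicates 1, 2 and 3. The whole sum in AEL replicate 3 was 47.3 CPM, against 37.9 CPM in replicate 2. Per CPM of the macrophage sum, Trf stood at 0.0617, 0.123 and 0.0309 in AEL replicates 1, 2 and 3 and at 0.102, 0.0918 and 0.0952 in NC. The groups overlapped on this measure. The AEL ratios are imprecise, as they rest on 5, 43 and 16 counts of Trf and on low macrophage sums. Per CPM of the 10 non-hemoglobin erythroid markers the groups lay far apart. There Trf was at 0.000122, 0.00124 and 0.000523 in AEL, against 0.0544, 0.0512 and 0.0510 in NC. The genes with the most similar profile were Sdc3 and C1qb, a complement gene of macrophages. Similarity was the root mean square difference of centred log2(CPM + 1) profiles over the 6 libraries, which was 0.275 for Sdc3 and 0.371 for C1qb. C1qb was at 0, 1.30 and 1.28 CPM in AEL, compared with 381, 403 and 412 CPM in NC. Over 6 libraries, likeness between genes near 0 in AEL mainly reflects the size of their fall. The part of macrophages or other cell types in the fall of Trf was not tested.

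Tfrc encodes transferrin receptor 1 (CD71), the main route of iron into red cell precursors (chromosome 16, 32608896 to 32632794). It was at 969.8, 574 and 763 CPM in AEL, compared with 1708, 1715 and 1925 CPM in NC. The highest AEL library, replicate 1, was still below the lowest NC library. Tfrc fell by 1.21 in log2 units (SE 0.20, adjusted p = 0.00305), and this held in all 18 alternatives, with adjusted p up to 0.0170. As CD71 staining was part of the NC sort, effects of sorting and of leukemia on this gene cannot be told apart. Relative to the 10 non-hemoglobin erythroid markers, Tfrc did not separate the groups: the ratio was 0.211, 0.153 and 0.273 in AEL and 0.179, 0.174 and 0.169 in NC. Relative to all 14 erythroid markers Tfrc was higher in every AEL library. The ratio was 0.0668, 0.0705 and 0.145 in AEL, against 0.0304, 0.0268 and 0.0270 in NC. The sum of these markers was itself lower in every AEL library, and its part in this was not tested.

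Tfr2 encodes transferrin receptor 2, which binds transferrin more weakly, takes part in iron sensing in liver and associates with the erythropoietin receptor in erythroid cells (chromosome 5, 137569822 to 137588081). It was at 264, 237 and 268 CPM in AEL, compared with 203, 211 and 203 CPM in NC. All AEL libraries were above all NC libraries, and both groups were tight, with a coefficient of variation of 6.64% in AEL and 2.23% in NC. Tfr2 rose by 0.32 in log2 units (SE 0.10, adjusted p = 0.0350), or 0.37 above the median of all genes. The gene no longer passed without 1 NC library, whichever was left out (adjusted p up to 0.116), with upper-quartile scaling (adjusted p = 0.0576), and in limma-voom with separate group weights (adjusted p = 0.0546).

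The ratio of the receptors did not overlap between the groups. The log2 ratio of Tfr2 to Tfrc within a library, which does not depend on scaling, was -1.88, -1.28 and -1.51 in AEL and -3.07, -3.02 and -3.25 in NC. All AEL libraries had the higher ratio, by 1.56 on average, that is 2.94-fold. As CD71, the product of Tfrc, was stained for the NC sort, effects of sorting and of leukemia on this ratio cannot be told apart. An exact two-sided permutation test gave p = 0.1, the smallest value that 3 against 3 libraries allow (adjusted over 4 ratios, 0.1). Per kilobase of the longest coding transcript, Tfrc averaged 157 CPM and Tfr2 83.4 CPM in AEL, and Tfrc 365 CPM and Tfr2 67.0 CPM in NC.

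Hfe encodes the hemochromatosis protein, an MHC class I-like molecule that binds transferrin receptor 1 (chromosome 13, 23702034 to 23710854). It was at 0, 1.19 and 0.183 CPM in AEL, from 0, 11 and 2 counts, and at 20.1, 22.1 and 24.4 CPM in NC. The groups did not overlap, and AEL replicate 2 held most of the AEL counts. The log2 fold change was -5.57 (SE 0.87, adjusted p = 0.00238). It was -7.56 without AEL replicate 2, and -2.32 on log2(CPM + 5), where the pseudocount shrinks the change of a gene at this level. AEL replicate 2 was also the AEL library with the most neutrophil marker RNA, at 1322 CPM. B2m, the partner chain of MHC class I-like proteins such as Hfe, fell by 1.88 (SE 0.13, adjusted p = 0.000176).

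Steap3 encodes the endosomal ferrireductase of erythroid cells, which reduces iron released from transferrin (chromosome 1, 120226414 to 120271081). It was at 261, 166 and 198 CPM in AEL, compared with 300.2, 304 and 288 CPM in NC. The groups did not overlap, although AEL replicate 1 came close to NC. Steap3 fell by 0.51 in log2 units (SE 0.17, adjusted p = 0.0427). It no longer passed with library totals alone (adjusted p = 0.133), without AEL replicate 2 or 3 (adjusted p = 0.0632 and 0.0830), or with 1 NC library left out (adjusted p = 0.0965 to 0.120). Per CPM of the 10 non-hemoglobin erythroid markers Steap3 was higher in every AEL library. It stood at 0.0568, 0.0443 and 0.0708 in AEL, against 0.0315, 0.0308 and 0.0252 in NC. These markers themselves fell in sum, and their part in this was not tested.

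Slc11a2 encodes DMT1, which moves the reduced iron out of the endosome (chromosome 15, 100387898 to 100424209). It was at 184, 165 and 191 CPM in AEL, compared with 196, 201 and 219 CPM in NC. Every AEL library was slightly below every NC library. The log2 fold change of -0.19 (SE 0.11, adjusted p = 0.183) did not pass, and passed in none of the 18 alternatives (adjusted p = 0.117 to 0.997). Per CPM of the 10 non-hemoglobin erythroid markers Slc11a2 was higher in every AEL library. It stood at 0.0400, 0.0439 and 0.0682 in AEL, against 0.0206, 0.0203 and 0.0192 in NC. The sum of these markers was itself lower in every AEL library, so a gene at like levels in both groups stands higher on this measure. Ireb2, which did not pass either, was at 0.0161, 0.0375 and 0.0293 in AEL, against 0.0121, 0.0118 and 0.0102 in NC. The part of the marker sum in the Slc11a2 ratio was not tested. Slc11a2 transcripts with and without an IRE are known; a count per gene joins them. Of its exon bases 402 of 6354 are shared with Gm5475 on the other strand, and whether counting used strand is not known.

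Slc25a37 encodes mitoferrin 1, the carrier that brings iron into the mitochondria of erythroid cells (chromosome 14, 69241848 to 69285544). It was at 504, 146 and 83.5 CPM in AEL, compared with 1018, 1104 and 1392 CPM in NC. AEL replicate 1 stood well above the other AEL libraries, but below every NC library. Slc25a37 fell by 2.26 in log2 units (SE 0.64, adjusted p = 0.0228), and its log2 fold change was -3.28 without AEL replicate 1 (adjusted p = 0.000611). With 1 NC library left out it did not pass (adjusted p = 0.0539 to 0.0711).

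AEL replicate 1 was also the AEL library with the most erythroid marker RNA. Per CPM of the 14 erythroid markers, Slc25a37 stood at 0.0347, 0.0179 and 0.0158 in AEL, against 0.0181, 0.0173 and 0.0195 in NC, with overlapping groups. Per CPM of the 10 non-hemoglobin markers it stood at 0.110, 0.0388 and 0.0298 in AEL, against 0.107, 0.112 and 0.122 in NC, where AEL replicates 2 and 3 lay below NC. Its nearest gene by profile was Gch1, at 25.5, 7.60 and 5.95 CPM in AEL, compared with 64.1, 82.1 and 97.1 CPM in NC (root mean square difference 0.217). Gch1 encodes an enzyme of tetrahydrobiopterin synthesis.

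The wider relative Slc25a28 (mitoferrin 2), which is expressed in many tissues, was at 41.7, 52.1 and 27.4 CPM in AEL, compared with 27.3, 29.9 and 30.7 CPM in NC. The groups overlapped, and its log2 fold change of 0.46 (SE 0.25, adjusted p = 0.156) did not pass; without AEL replicate 3 it was 0.71 and passed (adjusted p = 0.0164). The log2 ratio of Slc25a28 to Slc25a37 was -3.59, -1.48 and -1.61 in AEL and -5.22, -5.21 and -5.50 in NC. All AEL libraries had the higher ratio, by 3.08 on average (exact two-sided permutation p = 0.1, the smallest possible).

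Slc40a1 encodes ferroportin, the iron exporter, which is abundant in iron-recycling macrophages and also made by erythroid cells (chromosome 1, 45908070 to 45926532). It was at 104, 201 and 228 CPM in AEL, compared with 856, 854 and 1048 CPM in NC. The groups lay far apart, and AEL replicate 1 was the lowest library. Slc40a1 fell by 2.37 in log2 units (SE 0.30, adjusted p = 0.00113), and this held in all 18 alternatives, with values from -2.55 to -2.03. Macrophage markers fell beside it, but by more. In AEL replicate 3 the marker Mrc1 alone held 28.6 of the 47.3 CPM of macrophage markers. Slc40a1 stood at 11.4, 5.30 and 4.81 CPM per CPM of macrophage markers in AEL, against 0.168, 0.155 and 0.171 in NC. Per CPM of the 10 non-hemoglobin erythroid markers it was at 0.0226, 0.0535 and 0.0814 in AEL, against 0.0898, 0.0866 and 0.0918 in NC, lower in every AEL library. Per CPM of all 14 erythroid markers the groups overlapped, at 0.00717, 0.0247 and 0.0432 in AEL, against 0.0153, 0.0134 and 0.0147 in NC, with AEL replicates 2 and 3 above NC. Its nearest profile was that of Nfkbiz, a nuclear regulator of NF-kappaB, at 2.93, 5.32 and 5.85 CPM in AEL, compared with 24.9, 23.2 and 31.1 CPM in NC (root mean square difference 0.126).

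The exporter was lower relative to the receptor in AEL. The log2 ratio of Slc40a1 to Tfrc was -3.22, -1.51 and -1.74 in AEL and -0.996, -1.01 and -0.877 in NC, lower in every AEL library. The mean difference was -1.20 (exact two-sided permutation p = 0.1, the smallest possible), and -0.67 without AEL replicate 1. Here too the CD71 staining of the NC sort bears on Tfrc, so effects of sorting and of leukemia cannot be told apart. Per kilobase, Slc40a1 stood at 52.7 CPM in AEL, compared with 273 CPM in NC.

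Aco1 encodes iron regulatory protein 1, which is a cytosolic aconitase when it holds an iron-sulfur cluster and binds IREs when it does not (chromosome 4, 40143265 to 40199009). It was at 184, 492 and 138 CPM in AEL, compared with 87.5, 96.9 and 96.8 CPM in NC. All AEL libraries were above NC, and replicate 2 was far above the others. Aco1 rose by 1.53 in log2 units (SE 0.46, adjusted p = 0.0281), and by 0.82 without AEL replicate 2 (adjusted p = 0.00234). It did not pass with 1 NC library left out (adjusted p = 0.0820 to 0.0926). Its nearest gene by profile was Ccdc186, at 64.3, 136 and 36.9 CPM in AEL, compared with 25.8, 29.1 and 27.7 CPM in NC (root mean square difference 0.121).

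Ireb2 encodes iron regulatory protein 2, whose protein is degraded when iron is plentiful (chromosome 9, 54862658 to 54912534). It was at 74.0, 141 and 81.9 CPM in AEL, compared with 115, 116 and 117 CPM in NC. The groups overlapped: AEL replicate 2 was above NC and the other AEL libraries below. The log2 fold change of -0.23 (SE 0.24, adjusted p = 0.455) did not pass. Without AEL replicate 2 it was -0.53 and passed (adjusted p = 0.0103), and without AEL replicate 1 it was 0.01 (adjusted p = 0.975).

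Aco1 and Ireb2 were both highest in AEL replicate 2. Their log2 ratio, Aco1 over Ireb2, was 1.31, 1.81 and 0.76 in AEL and -0.39, -0.26 and -0.27 in NC. All AEL libraries had the higher ratio, by 1.60 on average, that is 3.04-fold (exact two-sided permutation p = 0.1, the smallest possible). Per kilobase, Aco1 averaged 70.8 CPM and Ireb2 17.1 CPM in AEL, and Aco1 24.5 CPM and Ireb2 20.1 CPM in NC. Per kilobase Aco1 was thus the higher one in both groups, whereas in NC its CPM not divided by length was below that of Ireb2, and the order in NC depends on the transcript length used.

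**Figure D2:**
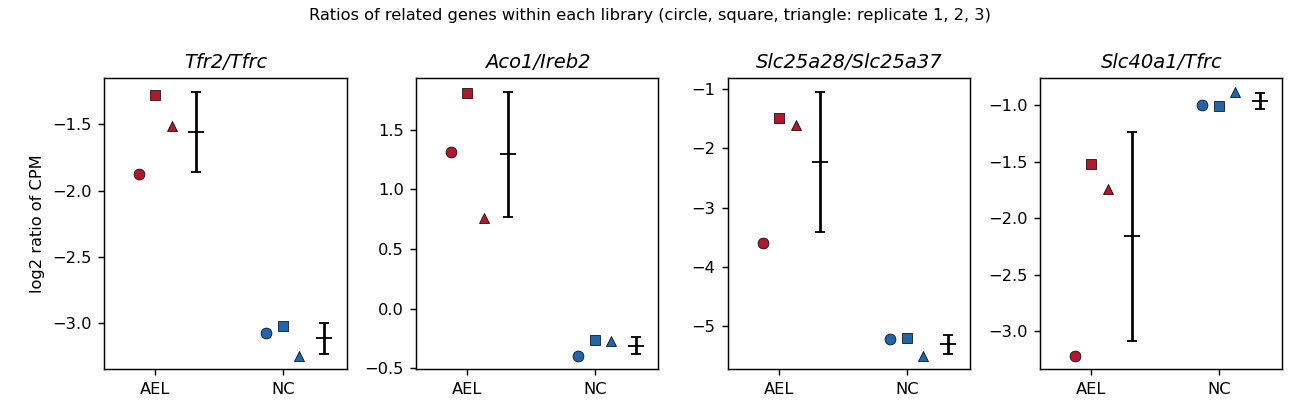
Log2 ratio of CPM of 4 gene pairs (y axis) within each AEL and NC library; circles, squares and triangles are replicates 1, 2 and 3, and bars are mean and SD (n = 3). AEL and NC do not overlap in any panel: AEL is higher for Tfr2/Tfrc, Aco1/Ireb2 and Slc25a28/Slc25a37 and lower for Slc40a1/Tfrc. CD71, the product of Tfrc, was stained for the NC sort.

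**Figure D3:**
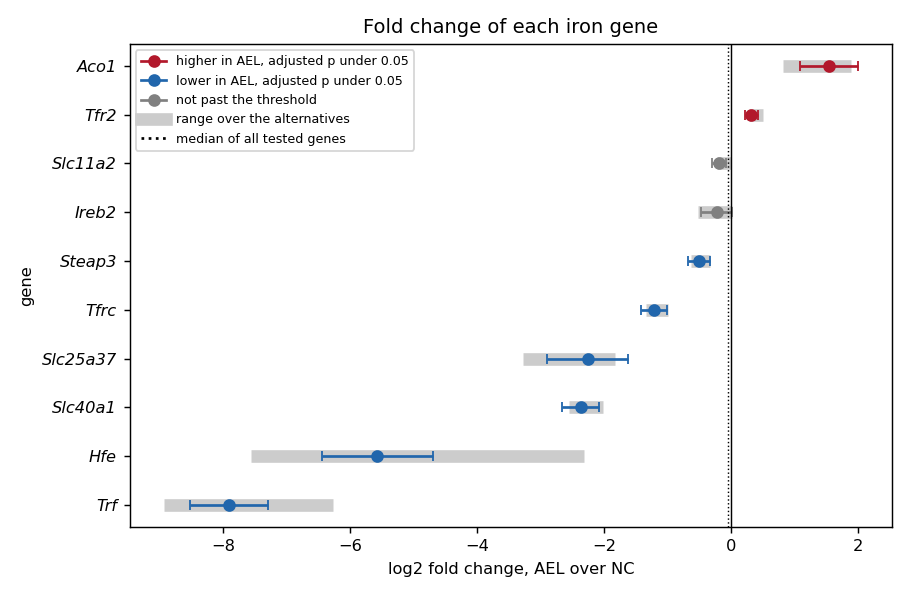
Log2 fold change of AEL over NC (x axis) of the 10 iron genes, with SE as error bars (n = 3 per group), the range over the 18 alternatives as grey bars and the median of all tested genes, -0.05, as a dotted line. Trf at -7.91 and Hfe at -5.57 lie far below the other genes, and Aco1 at 1.53 and Tfr2 at 0.32 lie above 0.

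Per kilobase, the order of mean levels in AEL was Tfrc at 157 CPM, Tfr2 at 83.4, Aco1 at 70.8, Slc25a37 at 58.6, Slc40a1 at 52.7, Slc11a2 at 40.8, Steap3 at 40.4, Ireb2 at 17.1, Trf at 0.868 and Hfe at 0.128. The libraries of every neighbouring pair from Tfr2 down to Steap3 overlapped, so that order is not clear of their spread, and those of Trf and Hfe overlapped too. Tfrc did not overlap with Tfr2, Steap3 with Ireb2, or Ireb2 with Trf, while Aco1 in AEL replicate 2 stood above Tfrc in that library. In NC the order was Tfrc at 365 CPM, Slc25a37 at 281, Slc40a1 at 273, Trf at 208, Tfr2 at 67.0, Steap3 at 57.7, Slc11a2 at 46.5, Aco1 at 24.5, Ireb2 at 20.1 and Hfe at 6.22. Only Slc25a37 and Slc40a1 overlapped among neighbours there.

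The other genes had close neighbours by profile as well, measured over the 6 libraries with the same root mean square difference. The nearest to Tfrc was Map3k1 (0.069), to Tfr2 Rnft1 (0.035), to Hfe Cd300c2 (0.087), to Slc11a2 Nmt1 (0.026), to Steap3 Aurkaip1 (0.020) and to Ireb2 Dcaf8 (0.049). Between the 10 genes the closest profiles were those of Slc11a2 and Steap3, at 0.244, and the farthest those of Trf and Aco1, at 4.45.

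Ireb2 and the other genes of its chromosome were both highest in AEL replicate 2 and lower in the other AEL libraries. Genes of chromosome 9 other than Ireb2 (459, at a mean of 10 CPM or more) had medians of -0.69, 0.01 and -0.72 in AEL replicates 1, 2 and 3, as log2(CPM + 1) minus the NC mean, and Ireb2 had -0.64, 0.28 and -0.50. Relative to its chromosome Ireb2 was thus at 0.04, 0.27 and 0.23 in AEL replicates 1, 2 and 3. Its 20 measured neighbours within 2 Mb had medians of -0.53, 0.53 and -0.35 in these libraries, and Ireb2 lay below them in each. Trf lies on the same chromosome and stood at -7.74, -6.58 and -7.04 relative to it, far below NC in every AEL library.

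The 290 other genes of chromosome 14 had medians of -0.02, -0.66 and -0.70 in AEL replicates 1, 2 and 3, and Slc25a37 had -1.20, -2.99 and -3.78. Relative to its chromosome Slc25a37 was at -1.18, -2.32 and -3.08, lower than NC in every AEL library. Within 2 Mb of it 17 other genes were measured, of which 6 fell and 0 rose, beside 29.0% of all genes lower and 23.9% higher. Chromosome 4, which holds Aco1, had medians near 0: 0.06, 0.04 and 0.13, while Aco1 had 0.97, 2.38 and 0.56. Its 21 measured neighbours within 2 Mb had medians of -0.13, 0.59 and 0.66 in AEL replicates 1, 2 and 3, and 6 rose and 1 fell. The part of the chromosome and neighbour medians in these results was not tested.

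**Figure D4:**
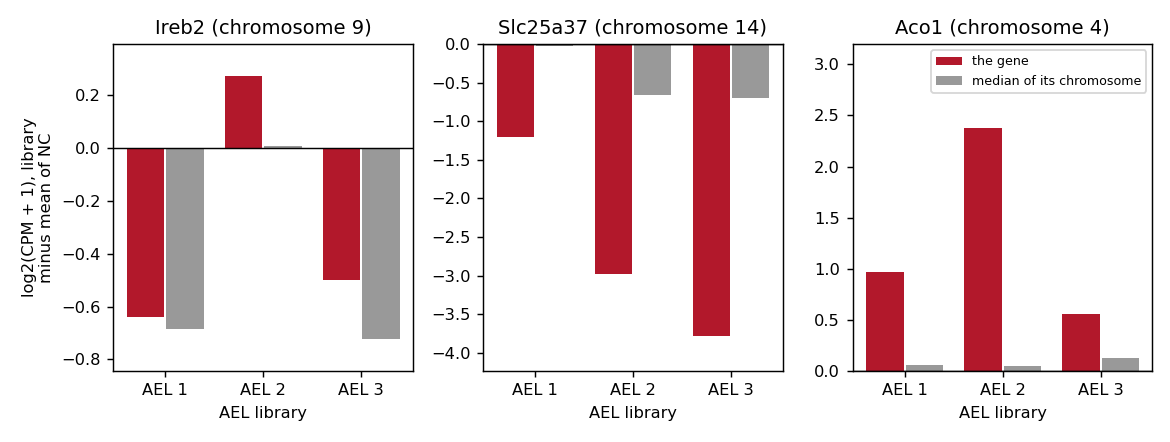
Log2(CPM + 1) of each AEL library minus the NC mean (y axis) for Ireb2, Slc25a37 and Aco1 (red bars) and the median of the other genes of the same chromosome (grey bars), 1 pair of bars per AEL library. Ireb2 at -0.64, 0.28 and -0.50 is highest in replicate 2, as are its chromosome's medians at -0.69, 0.01 and -0.72, while Aco1 lies at 0.56 to 2.38 with its chromosome at 0.04 to 0.13.

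Among other iron genes more fell than rose. Of 102 listed, 90 were tested and 42 fell, 9 rose and 39 did not pass, beside 29.0% of all genes lower, 23.9% higher and 52.8% called in either direction, with a median log2 fold change of -0.43 against -0.05 for all genes. With library totals alone 36 fell and 14 rose.

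Of 12 genes of transferrin endosome traffic 2 fell and 0 rose, with a median of -0.14. Snx3, a sorting nexin that returns transferrin receptor to the surface, was at 149 ± 15.3 CPM in AEL, compared with 318 ± 17.6 CPM in NC (mean ± SD of 3 libraries each), and fell by 1.09 (SE 0.12, adjusted p = 0.000703). Picalm, a clathrin adaptor needed for receptor uptake in erythroblasts, fell by 1.07 (SE 0.14). Exoc6, the exocyst subunit mutated in the hemoglobin-deficit mouse, was at 180, 214 and 70.3 CPM in AEL, compared with 135, 153 and 136 CPM in NC, which overlapped.

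Of 7 ferritin storage and turnover genes tested 3 fell and 0 rose, with a median of -0.28. Ftl1, the ferritin light chain, was at 343 ± 12.7 CPM in AEL, compared with 2096 ± 93.9 CPM in NC and fell by 2.61 (SE 0.11, adjusted p = 6.76e-05). Fth1, the heavy chain, was at 1778, 1707 and 829 CPM in AEL, compared with 3382, 3228 and 3276 CPM in NC, and fell by 1.20 (SE 0.29, adjusted p = 0.0124). Ferritin genes have many processed pseudogenes, so their counts are uncertain. Ncoa4, the receptor for ferritin breakdown in autophagy, fell by 1.66 (SE 0.27, adjusted p = 0.00283), with 46.8, 27.3 and 24.9 CPM in AEL, compared with 85.6, 116 and 112 CPM in NC. The poly(rC)-binding iron chaperones did not pass: Pcbp1 was at -0.28 and Pcbp2 at 0.10.

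Of 22 mitochondrial iron and iron-sulfur genes 12 fell and 1 rose, with a median of -0.90. Abcb10, which stabilizes mitoferrin 1 in the inner membrane, fell by 1.73 (SE 0.25, adjusted p = 0.00180), at 366, 292 and 184 CPM in AEL, compared with 892, 902 and 994 CPM in NC. Fam210b, a mitochondrial protein of erythroid iron import, fell by 1.69 (SE 0.29). Hspa9, the mitochondrial chaperone mortalin, rose by 1.16 (SE 0.27, adjusted p = 0.0111), with 667, 673 and 1251 CPM in AEL replicates 1, 2 and 3, against 379, 436 and 342 CPM in NC; it did not pass with NC replicate 3 left out (adjusted p = 0.0508).

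Of 14 genes of cytosolic iron-sulfur assembly and IRP control 2 rose and 5 fell, a share called close to the 52.8% of all genes, with a median of -0.16. Fbxl5, the iron-sensing ubiquitin ligase subunit that marks iron regulatory protein 2 for degradation, was at 38.5, 48.9 and 36.8 CPM in AEL, compared with 42.3, 48.9 and 46.6 CPM in NC (-0.15, adjusted p = 0.464). Cul1, the scaffold of that ligase, rose by 0.35 (SE 0.12, adjusted p = 0.0415), and did not pass in 10 of 18 alternatives. Ndor1, a reductase of cluster assembly, rose by 1.24 (SE 0.19), and Fam96b and Cisd2 fell by 0.90 (SE 0.19) and 0.76 (SE 0.15).

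Of 14 genes tested of the hepcidin and erythroferrone axis 4 rose and 6 fell, with a median of -0.67. Fam132b, which encodes erythroferrone, the erythroblast hormone that lowers hepcidin, was at 5.40, 2.17 and 0.915 CPM in AEL, compared with 2.97, 5.32 and 4.38 CPM in NC, which overlapped (adjusted p = 0.468). It was chosen for its role after its values were seen. Neo1, neogenin, a co-receptor of hemojuvelin in liver, was at 33.4, 46.6 and 31.2 CPM in AEL, compared with 0, 0.236 and 0.230 CPM in NC. Tmprss6, a protease that cleaves hemojuvelin in liver, rose by 1.70 (SE 0.45, adjusted p = 0.0187), and did not pass with 1 NC library left out (adjusted p = 0.0553 to 0.0765). Gdf15, a secreted stress factor, was at 0.169 ± 0.163 CPM in AEL, compared with 24.6 ± 2.08 CPM in NC.

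Of 10 heme transport and breakdown genes tested 2 rose and 5 fell, with a median of -1.02. Hmox1, the inducible heme oxygenase and a macrophage marker in the list above, was at 0.563, 3.04 and 1.74 CPM in AEL, compared with 823, 882 and 973 CPM in NC. Flvcr1, a heme exporter (Mfsd7b in the table), rose by 1.24 (SE 0.25, adjusted p = 0.00694), at 44.2, 42.1 and 76.1 CPM in AEL, compared with 22.7, 23.0 and 23.3 CPM in NC. Pgrmc1, a heme-binding membrane protein, rose by 0.91 (SE 0.20), and Hebp1, a heme-binding protein, fell by 3.41 (SE 0.38).

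Of 8 further importers, reductases and ferroxidases tested 7 fell and 0 rose, with a median of -2.95, or -2.39 with Slc22a17, at 0 in all AEL libraries, set to the floor of 3 counts in the shallowest one. Slc11a1, the phagosomal metal transporter of macrophages and also on the macrophage list, was at 0, 4.56 and 0.823 CPM in AEL, compared with 78.1, 85.3 and 93.3 CPM in NC. Lcn2, a siderophore-binding neutrophil protein on the neutrophil list, was at 2.03, 110 and 8.96 CPM in AEL, compared with 447, 505 and 583 CPM in NC, highest among AEL libraries in replicate 2, as were the neutrophil markers; its log2 fold change of -3.67 (SE 1.24, adjusted p = 0.0432) did not pass with AEL replicate 3 or any 1 NC library left out (adjusted p = 0.0888 to 0.103).

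Among 8 genes known for IREs in their transcripts 6 fell and 0 rose, with a median of -1.79. Those with the element in the 3′ UTR, Tfrc and Slc11a2, were at -1.21 and -0.19. Of those with it in the 5′ UTR, values were -2.37 for Slc40a1, -1.20 for Fth1 and -2.61 for Ftl1. Epas1, a hypoxia factor listed for such an element, in which the search above found no match, had 1 count in all of AEL and 1.93, 2.01 and 1.84 CPM in NC. Tfrc, Slc11a2 and Slc40a1 are among the 10 genes above, and Fth1 and Ftl1 are on the ferritin list too. Alas2, the first enzyme of erythroid heme synthesis and an erythroid marker in the list above, was at 166, 40.3 and 24.1 CPM in AEL, compared with 731, 834 and 1007 CPM in NC, and fell by 3.48 (SE 0.72, adjusted p = 0.00709). In AEL its order over the replicates was that of Slc25a37.

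**Figure D5:**
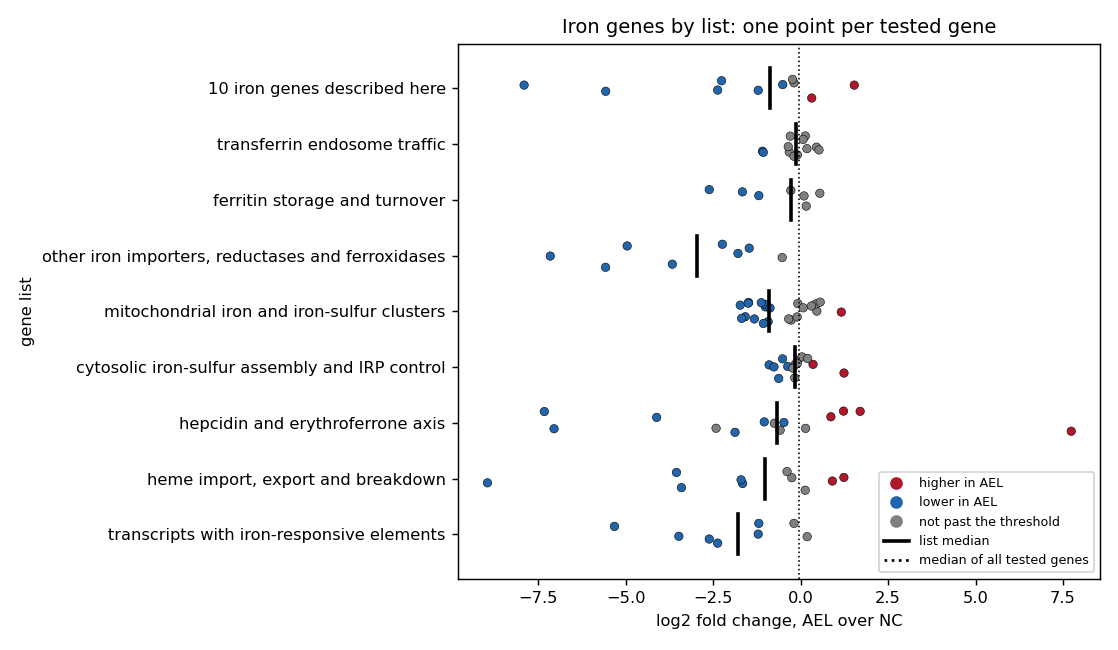
Log2 fold change of AEL over NC (x axis) of every tested gene in the 10 iron genes and the other iron lists (y axis, 1 point per gene), with list medians as black bars and the median of all tested genes, -0.05, as a dotted line; genes at 0 in 1 group are at their fitted value. Most called genes lie to the left, and the points at the far right and far left are Neo1 and Hmox1.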

How the data were processed

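The authors deposited 1 table of whole-number counts per gene for 3 AEL and 3 NC libraries. Its name says CPM, but its columns sum to 8171676 to 9945330, not to a common total. Every gene exceeded 1 CPM in at least 2 libraries. RNA was poly-A selected, per the labels' protocols. The submitters' processing notes name mm10 and edgeR 3.32.1, with no role; no aligner, counter or strandedness is stated in the labels or the file.

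Of 13007 genes, the 12427 that reached 1 CPM in 3 libraries were tested with edgeR 4.0.16 (R 4.3.3) by the quasi-likelihood test. The scaling was TMM, the model held only the group, and Benjamini-Hochberg adjusted p-values were read at 0.05. SE is the absolute log2 fold change over the square root of F. Alternatives used limma 3.58.1, DESeq2 1.42.0 (which left 26 genes with no adjusted p), other scalings, filters, pseudocounts, a replicate block and leaving out each library. The test was tried on simulated counts with known changes and the same spread in both groups. The AEL libraries in fact varied more than NC, so this does not show how the test performs on these data. The 10 genes, the gene lists and the tests were chosen with earlier results of these data known. Named genes of the other lists were the 2 largest rises and 2 largest falls that passed with the higher group averaging at least 5 CPM, plus Fth1, Ftl1, Ncoa4, Fbxl5, Slc25a28 and Alas2. Exoc6, Pcbp1, Pcbp2, Fam132b and Epas1 fall outside this rule and were named for their roles after their values were seen. No library repeats another: chi-square per degree of freedom was 47.1 to 59.0 within AEL and 4.82 to 8.81 within NC. Coordinates are RefSeq genes of GRCm38.p6, transcript sequences and lengths GENCODE vM21. Ratios of the iron genes to marker sums were chosen after the values were seen. Per-kilobase levels use the longest coding transcript, which the counting may not have followed. The 3-count floor covers counting error only. Some items of the lists are not reported here.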

Additional observations from a re-analysis of the deposited data

How the results depend on the processing

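Over 18 alternatives, 17 of them planned and 1 (TMM factors without chromosomes 9 and 14) chosen after seeing the data, Trf, Hfe, Tfrc and Slc40a1 kept their direction and their call, and Slc11a2 never passed. The 2 genes called higher became 1 with upper-quartile scaling, with limma-voom and with the replicate block, and the range without single replicates was 0 to 2; the number called lower was 4 to 6 there. Other iron genes called higher numbered 14 with library totals alone, against 9. Ireb2 changed sign without AEL replicate 1 (log2 fold change 0.00924) and passed without AEL replicate 2 (-0.528). Fbxl5 changed sign with library totals alone (0.0369) and did not pass. Without NC replicate 1, 2 or 3 the test called 4612, 4634 and 4744 of all genes, against 6564 with all libraries. Without AEL replicate 1, 2 or 3, in fits with as many samples, it called 6810, 7296 and 6437. The number of iron genes called higher was 0 in each fit without an NC replicate and 2 in each without an AEL replicate. The cause of these and the other changes was not tested. The 4 ratios kept their direction in all 8 alternatives each, where no p can pass. Without single libraries the log2 ratio differences ranged from 1.42 to 1.72 for Tfr2/Tfrc, 1.35 to 1.87 for Aco1/Ireb2, 2.71 to 3.76 for Slc25a28/Slc25a37 and -1.52 to -0.67 for Slc40a1/Tfrc.

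The replicate numbers showed no pairing of the samples: deviations of same-numbered AEL and NC libraries correlated at 0.06, -0.03 and -0.06 over genes. Differently numbered libraries correlated at -0.07 to 0.10. This check cannot exclude a pairing, as the AEL libraries varied far more than those of NC. With the replicate block 5479 genes were called, against 6564, and 5 iron genes were lower and 1 higher; among the 10 genes it changed no call other than those of Tfr2 (adjusted p = 0.118) and Steap3 (adjusted p = 0.0584). Depth limits Trf and Hfe in AEL, where they had 0 to 43 counts per library.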
